A study of Mus musculus with 18 samples.

Results

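The interferon regulatory factors described here are 8 transcription factor genes, Irf1, Irf2, Irf3, Irf4, Irf5, Irf7, Irf8 and Irf9, out of 19938 genes measured on 18 microarrays of mouse bone marrow-derived dendritic cells. They were chosen by name: each is represented by a probe set that the array annotation pairs with that symbol alone, and Irf1, which has more than one such probe set, by the one with the highest mean signal. The arrays fall into 6 groups of 3, from cells wild type or knockout for Ubc9, left without lipopolysaccharide (LPS) or given 10 ng/ml LPS for 1 h or 6 h. Ubc9 is the enzyme that conjugates the small protein SUMO to its targets, and LPS is a bacterial cell wall component that dendritic cells sense through TLR4. All 6 groups were labelled with the same culture: 10 days with GM-CSF at 20 ng/ml and 10% serum, with 4-hydroxytamoxifen at 100 nM added at day 6 to wild-type and knockout cultures alike. No source used here names the Cre driver, the altered Ubc9 allele, the mouse strain or the age of the mice.

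Interferon regulatory factors bind DNA through a shared winged-helix domain that reads GAAA repeats, the core of the interferon-stimulated response element (ISRE). IRF3 and IRF7 are held in the cytoplasm until TBK1 or IKK-epsilon phosphorylates them, and they then switch on type I interferon genes, while IRF5 is activated downstream of MyD88 and drives inflammatory cytokines. IRF9 joins STAT2 in the ISGF3 complex, which carries the signal from the type I interferon receptor to the ISRE. IRF1 activates and IRF2 mostly counters genes induced by interferon-gamma. IRF4 and IRF8 pair with PU.1 or BATF proteins and direct the development of dendritic cell subsets.

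Promoter sequence was examined for the letters through which these factors and their upstream signals are read, since members of the family are themselves inducible by interferon and by NF-kB. RefSeq windows of 300 bases, from 250 before to 50 after a transcription start (build GRCm38.p6), were found for all 8 members, 11 windows in all. A GAS element, through which interferon-gamma activates genes, was searched as TTCNNNGAA, which reads the same on both strands and was counted once per position. It stood in windows of 3 members, Irf1, Irf2 and Irf8, and in 8.3% of all 32851 windows. The ISRE core, searched as GAAANNGAAA on both strands, was found in 1 member, Irf2, and in 3.44% of all windows. The NF-kB consensus was found in 2 members, Irf1 and Irf2, and in 4.51% of all windows. Members are counted by gene over all their windows, whereas these shares are per window, so the 2 are not like for like. The stretches below are shown because they are the only matches in the 8 members; each runs 5′ to 3′ on the coding strand, upstream of the start, with the matched letters in capitals.
Irf1 GAS, chr11:53769914-53769942 (+), 90 to 82 bases before the start: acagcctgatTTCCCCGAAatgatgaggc
Irf1 NF-kB, chr11:53769991-53770013 (+), 13 to 4 bases before the start: agtccgggccGGGGAATCCCgct
Irf2 ISRE, chr8:46739495-46739523 (+), 241 to 232 bases before the start: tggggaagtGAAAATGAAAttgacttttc
Irf2 GAS, chr8:46739511-46739539 (+), 224 to 216 bases before the start: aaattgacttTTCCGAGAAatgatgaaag
Irf2 NF-kB, chr8:46739718-46739744 (+), 17 to 8 bases before the start: cgggggtgggGGGGATTTCCagcctcg
Irf8 GAS, chr8:120736177-120736205 (+), 171 to 163 bases before the start: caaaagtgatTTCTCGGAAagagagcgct
Irf8 GAS, chr8:120736195-120736223 (+), 153 to 145 bases before the start: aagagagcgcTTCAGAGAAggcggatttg
The ISRE and GAS matches of Irf2 lie within the same short stretch, and Irf1 and Irf2 hold an NF-kB match close to the start. A match of letters is a description and not a measured binding site.

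Signals are log2 RMA values, so a difference of 1 unit is a doubling of the signal. Each probe set binds its target with its own strength, so levels are compared between groups for a gene and never between genes. Correlations between arrays of a group over all 35556 deposited probe sets were 0.983 to 0.993, and no 2 arrays held identical values. The deleted gene itself is not analysed here, so the knockout labels are taken as given. No detection calls were used, and near background a log2 difference can understate the change of a gene. Of the conventional dendritic cell markers, Itgax, which encodes CD11c, had group means of 11.02 to 11.17 in wild-type and 10.68 to 10.73 in knockout cells over the 3 conditions. H2-Ab1, an MHC class II chain, had group means of 11.41 to 11.68 and 11.07 to 11.3. These are 2 of 8 such markers, and over all 8 the array means of the genotypes overlapped. Without LPS those means were 8.51 to 9.05 in wild-type and 8.39 to 8.65 in knockout cells. At 6 h they were 8.78 to 9.34 and 8.87 to 9.18. In whole cultures, fewer cells of a type and less RNA per cell cannot be told apart.

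Irf7 and Irf9 were called higher in unstimulated knockout than wild-type cells, and these were the only 2 of the 8 called there (limma, Benjamini-Hochberg adjusted p under 0.05), against 2.44% of all genes called in either direction and 1.8% called higher. After 1 h of LPS the same 2 of 8 were called between the genotypes, against 2.19% of all genes in either direction and 1.5% higher. After 6 h, 5 of 8 were called, Irf1, Irf2, Irf7 and Irf9 higher and Irf4 lower in the knockout, against 29.4% of all genes (10.6% higher and 18.8% lower). The 3 arrays of each genotype did not overlap for 4 of the 8 members without LPS, 4 at 1 h and 6 at 6 h, against 14.6%, 19.6% and 44.3% of all genes. The median knockout minus wild-type difference over the 8 members was 0.26, 0.35 and 0.59 log2 units in the 3 conditions, against 0.00, -0.03 and 0.04 over all genes. Between the highest and the lowest of the 6 group means, Irf7 spanned 6.2 log2 units, Irf1 3.2 and Irf9 2.17, followed by Irf4 at 1.25, Irf2 at 1.14, Irf5 at 0.91, Irf8 at 0.69 and Irf3 at 0.48; the median gene spanned 0.38. The 6 h LPS knockout cells held the highest mean for Irf1, Irf2, Irf5, Irf7, Irf8 and Irf9, and the lowest for Irf3 and Irf4.

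**Figure D1:**
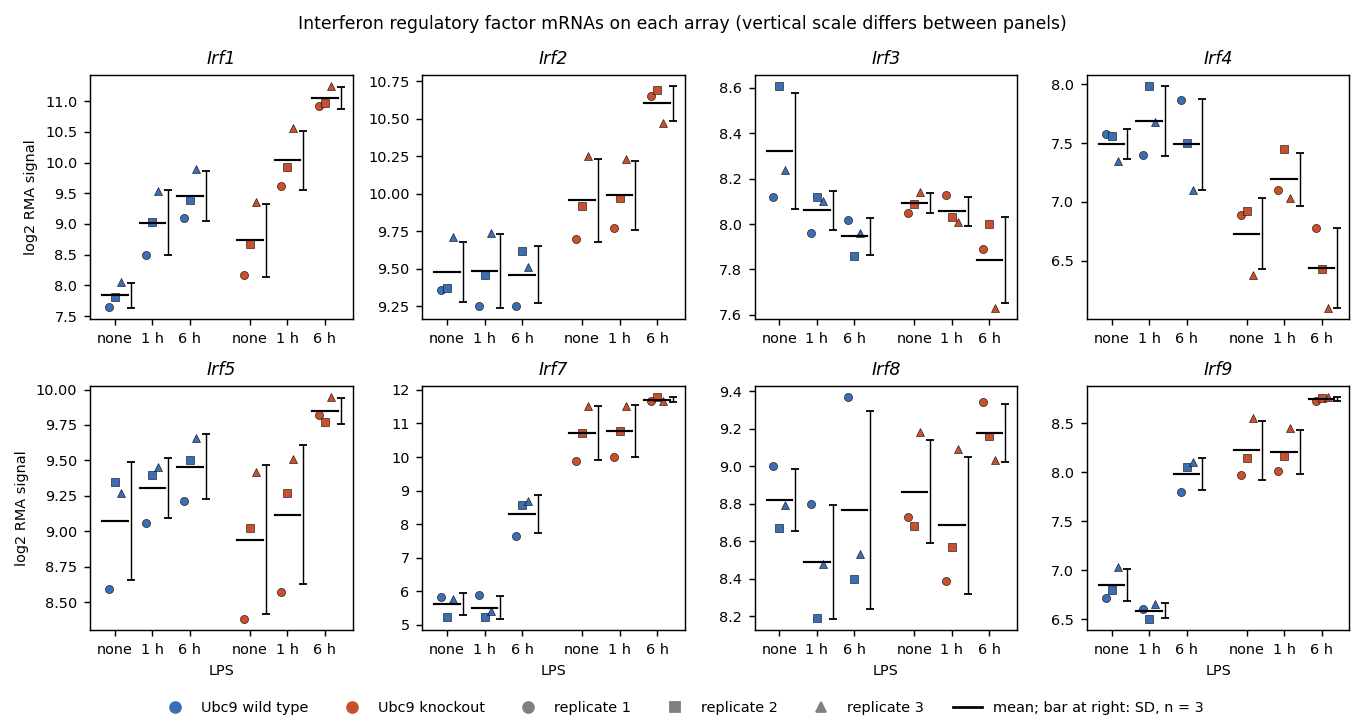
Log2 RMA signal of each interferon regulatory factor on each of the 18 arrays, by genotype and LPS time, with group means (horizontal lines) and SD (n = 3, bars at right); each panel has its own vertical scale. Every knockout array lies above every wild-type array for Irf7, whereas the 2 genotypes overlap for Irf2, Irf3, Irf5 and Irf8 without LPS.

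Irf7, the factor that amplifies type I interferon production, differed most between the genotypes. Its log2 signal in unstimulated wild-type cells was 5.84, 5.25 and 5.76 in replicates 1, 2 and 3, and in unstimulated knockout cells 9.89, 10.73 and 11.51. After 1 h of LPS it was 5.89, 5.24 and 5.41 in wild-type and 9.99, 10.79 and 11.53 in knockout cells. After 6 h it was 7.64, 8.57 and 8.70 in wild-type and 11.67, 11.80 and 11.66 in knockout cells. The lowest knockout array of any condition was thus above the highest wild-type array, including those given LPS for 6 h. The difference between genotypes was 5.09 ± 0.39 log2 units (SE, limma, adjusted p = 1.5e-06), or 34.1-fold, without LPS. It was 5.26 ± 0.39 (adjusted p = 1.0e-06) at 1 h and 3.41 ± 0.39 (adjusted p = 9.3e-06), or 10.6-fold, at 6 h. In wild-type cells 6 h of LPS raised Irf7 by 2.69 ± 0.39 (adjusted p = 3.2e-04), with all 3 arrays above the unstimulated ones. In knockout cells the 6 h difference was 1.00 ± 0.39 and not called (adjusted p = 0.061); with the replicate number as a block it was 1.00 ± 0.30 and called (adjusted p = 0.015), and it differed by replicate number, at 1.78, 1.07 and 0.16 in numbers 1, 2 and 3.

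Irf9, the DNA-binding subunit of ISGF3, followed nearly the same order of groups in smaller steps. Its signal was 6.71, 6.80 and 7.03 in unstimulated wild-type and 7.97, 8.15 and 8.56 in unstimulated knockout cells. At 1 h it was 6.60, 6.50 and 6.65 in wild-type and 8.01, 8.17 and 8.45 in knockout cells. At 6 h it was 7.80, 8.05 and 8.11 in wild-type and 8.73, 8.76 and 8.77 in knockout cells. The genotypes did not overlap in any of the 3 conditions, and wild-type cells at 6 h of LPS overlapped with knockout cells that had received none. Irf9 was higher in the knockout by 1.38 ± 0.14 without LPS (adjusted p = 3.6e-05), by 1.62 ± 0.14 at 1 h (adjusted p = 6.0e-06) and by 0.77 ± 0.14 at 6 h (adjusted p = 7.5e-04). LPS for 6 h raised it by 1.14 ± 0.14 in wild-type (adjusted p = 1.0e-04) and by 0.53 ± 0.14 in knockout cells (adjusted p = 0.01). The latter call was lost without unstimulated knockout replicate 1 (0.40, adjusted p = 0.066), and was kept with the replicate number as a block (adjusted p = 8.6e-04).

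Irf1, the activator of interferon-gamma response genes, was the member that moved first after LPS. Its signal was 7.65, 7.81 and 8.06 in unstimulated wild-type and 8.17, 8.67 and 9.36 in unstimulated knockout cells. At 1 h it was 8.49, 9.03 and 9.54 in wild-type and 9.62, 9.93 and 10.56 in knockout cells, and at 6 h 9.09, 9.39 and 9.90 against 10.92, 10.96 and 11.25. In each genotype and at each time the LPS arrays were above all unstimulated arrays, and in every group the array numbered 3 was the highest and the array numbered 1 the lowest. The 1 h difference was 1.18 ± 0.31 in wild-type (adjusted p = 0.24) and 1.30 ± 0.31 in knockout cells (adjusted p = 0.079). With the replicate number as a block the same differences had an SE of 0.14 and were called in wild-type (adjusted p = 3.8e-04) and in knockout cells (adjusted p = 7.6e-05). At 6 h Irf1 rose by 1.62 ± 0.31 in wild-type (adjusted p = 0.003) and by 2.31 ± 0.31 in knockout cells (adjusted p = 3.0e-05). The genotype difference was 0.90 ± 0.31 without LPS (adjusted p = 0.18) and 1.02 ± 0.31 at 1 h (adjusted p = 0.12), neither called, although the 1 h difference was called with the replicate number as a random block within genotype (1.02, adjusted p = 0.0499). It was 1.58 ± 0.31 at 6 h (adjusted p = 0.0011), or 2.99-fold.

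Irf2, which binds the same elements as IRF1 and mostly opposes it, differed between the genotypes at 6 h. Its signal in wild-type cells stayed between 9.25 and 9.74 over all 9 arrays. It was 9.36, 9.37 and 9.71 without LPS, 9.25, 9.46 and 9.74 at 1 h and 9.25, 9.62 and 9.51 at 6 h. In knockout cells it was 9.70, 9.92 and 10.25 without LPS, 9.77, 9.97 and 10.23 at 1 h and 10.65, 10.69 and 10.47 at 6 h. Only the 6 h knockout arrays lay above the arrays of every other group. The 6 h LPS response was -0.02 ± 0.16 in wild-type (adjusted p = 0.98) and 0.65 ± 0.16 in knockout cells (adjusted p = 0.0064). The genotype difference was 0.48 ± 0.16 without LPS (adjusted p = 0.18), 0.51 ± 0.16 at 1 h (adjusted p = 0.16) and 1.14 ± 0.16 at 6 h (adjusted p = 7.6e-05), or 2.21-fold.

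Irf4, the factor of CD11b-type dendritic cells and of plasma cells, was the only member called lower in the knockout. Its signal was 7.58, 7.56 and 7.35 in unstimulated wild-type and 6.89, 6.92 and 6.38 in unstimulated knockout cells. At 1 h it was 7.40, 7.99 and 7.68 in wild-type and 7.10, 7.45 and 7.03 in knockout cells, and at 6 h 7.87, 7.50 and 7.10 against 6.78, 6.43 and 6.10. The genotypes were apart without LPS and at 6 h and overlapped at 1 h. Irf4 in the knockout was 0.482 times its wild-type level at 6 h, a difference of -1.05 ± 0.21 log2 units (adjusted p = 0.0014). Without LPS the difference was -0.77 ± 0.21 (adjusted p = 0.079) and at 1 h -0.50 ± 0.21 (adjusted p = 0.37), neither called. No LPS response of Irf4 was called in either genotype; the nearest was 0.46 ± 0.21 at 1 h in knockout cells (adjusted p = 0.57).

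Irf8, required for the development of cross-presenting and plasmacytoid dendritic cells, was not called in any comparison. Its signal was 9.0, 8.67 and 8.79 in unstimulated wild-type and 8.73, 8.68 and 9.18 in unstimulated knockout cells. At 1 h it was 8.80, 8.19 and 8.48 in wild-type and 8.39, 8.57 and 9.09 in knockout cells, and at 6 h 9.37, 8.40 and 8.53 against 9.34, 9.16 and 9.03. The genotypes overlapped in every condition. At 6 h wild-type replicate 1 stood with the knockout arrays: the difference was 0.41 ± 0.24 (adjusted p = 0.21) with it and 0.71, called at adjusted p = 0.024, without it. The 95% interval of the unstimulated difference was -0.46 to 0.55.

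Irf5, the factor downstream of MyD88 that drives inflammatory cytokine genes, was called in the 6 h response of knockout cells. Its signal was 8.59, 9.35 and 9.27 in unstimulated wild-type and 8.38, 9.02 and 9.42 in unstimulated knockout cells. At 1 h it was 9.06, 9.40 and 9.45 in wild-type and 8.57, 9.27 and 9.51 in knockout cells, and at 6 h 9.21, 9.50 and 9.66 against 9.82, 9.77 and 9.95. The 3 knockout arrays at 6 h were above all wild-type arrays and above the other knockout arrays, while unstimulated replicate 1 was the lowest array of its group in both genotypes. The 6 h response was 0.91 ± 0.26 in knockout cells (adjusted p = 0.015) and 0.39 ± 0.26 in wild-type cells (adjusted p = 0.52). The knockout call was lost without unstimulated knockout replicate 1 (0.63, adjusted p = 0.093) or 6 h knockout replicate 3 (0.86, adjusted p = 0.0532). The genotype difference was not called, at 0.39 ± 0.26 at 6 h (adjusted p = 0.28) and -0.13 ± 0.26 without LPS (adjusted p = 0.92).

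Irf3, the constitutively expressed factor that starts interferon-beta transcription, varied least. Its signal was 8.12, 8.61 and 8.24 in unstimulated wild-type and 8.05, 8.09 and 8.14 in unstimulated knockout cells. At 1 h it was 7.96, 8.12 and 8.10 in wild-type and 8.13, 8.03 and 8.01 in knockout cells, and at 6 h 8.02, 7.86 and 7.96 against 7.89, 8.0 and 7.63. Neighbouring groups overlapped along the whole order of its means. The genotype difference was -0.23 ± 0.12, -0.00 ± 0.12 and -0.11 ± 0.12 without LPS, at 1 h and at 6 h (adjusted p = 0.46, 1 and 0.5). In wild-type cells the 6 h difference was -0.37 ± 0.12, not called (adjusted p = 0.066) but called with the replicate number as a block (adjusted p = 0.041). It was also called with array weights (adjusted p = 0.0498), repeated quantile normalization (0.044) or dim genes left out (0.04). The same held without 6 h knockout replicate 3 (0.041) or unstimulated wild-type replicate 1 (0.026). Under the other settings it was not called. The activity of IRF3 and the other factors also depends on phosphorylation, which mRNA signals do not show.

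**Figure D2:**
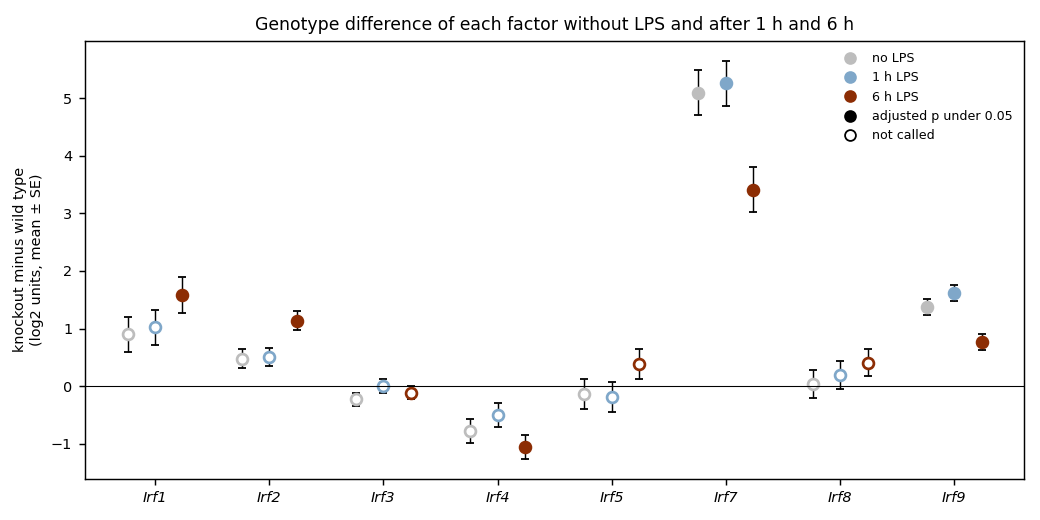
Knockout minus wild-type difference of each factor in log2 units (limma estimate ± SE, 3 arrays a group) without LPS and after 1 h and 6 h; filled points have an adjusted p under 0.05. Irf7 and Irf9 are called in all 3 conditions, and Irf1, Irf2 and Irf4 at 6 h.

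The LPS response of the family differed in extent between times. After 1 h none of the 8 members was called in wild-type cells (0.301% of all genes) or in knockout cells (0.667%), by limma with adjusted p under 0.05. With the replicate number as a block, Irf1 alone was called in each genotype, against 0.667% and 1.55% of all genes. Before adjustment, the limma p was under 0.05 for Irf1 and Irf3 in wild-type and Irf1 and Irf4 in knockout cells. The share of all genes at that unadjusted threshold is not given here, so these are not set against a background. The 95% interval of Irf1 was 0.53 to 1.83 in wild-type and 0.64 to 1.95 in knockout cells. After 6 h, 3 of 8 were called in wild-type cells, Irf1, Irf7 and Irf9, all higher, against 8.1% of all genes in either direction and 4.23% higher; with the block it was 4, Irf3 being added, against 15.1%. In knockout cells 4 of 8 were called at 6 h, Irf1, Irf2, Irf5 and Irf9, all higher, against 32.2% of all genes in either direction and 12% higher. The count was 2 without unstimulated knockout replicate 1, and 5 with the block, Irf7 being added, against 42.5%. The median 6 h response of the 8 members was 0.19 in wild-type and 0.59 in knockout cells, against -0.01 and 0.03 over all genes.

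Whether a response differed between the genotypes was tested as an interaction. At 1 h no member was called, with 0% of all genes called, with or without the block; no member's 95% interval excluded 0. At 6 h no member was called in the fit of group means by limma, against 10.2% of all genes. The unadjusted p of that fit was under 0.05 for Irf2, Irf7 and Irf9. The share of all genes at the unadjusted threshold is not given here, and 10.2% is not that share. With the replicate number as a block 4 of 8 were called, against 21.8% (6.63% higher and 15.2% lower). With the block, Irf1 and Irf2 responded more in knockout cells, with differences of 0.68 ± 0.19 (adjusted p = 0.022) and 0.67 ± 0.18 (adjusted p = 0.016). Irf7 and Irf9 responded less, with differences of -1.68 ± 0.43 (adjusted p = 0.012) and -0.61 ± 0.15 (adjusted p = 0.0087). Without the block the adjusted p of the 4 was 0.35 for Irf1, 0.08 for Irf2, 0.064 for Irf7 and 0.068 for Irf9. In the fit of group means, leaving out 1 array brought Irf7 past the threshold for unstimulated knockout replicate 1 (-2.09, adjusted p = 0.023), 1 h knockout replicates 1 and 3 (-1.68, adjusted p = 0.043 and 0.042) and 6 h wild-type replicate 1 (-2.02, adjusted p = 0.037). It did so for Irf9 without unstimulated knockout replicate 1 (-0.74, adjusted p = 0.037) or unstimulated wild-type replicate 3 (-0.70, adjusted p = 0.0452), and for Irf2 without unstimulated knockout replicate 3 (0.81, adjusted p = 0.029). By replicate number, the 6 h response of Irf2 was -0.11, 0.25 and -0.20 in wild-type and 0.95, 0.77 and 0.22 in knockout cells. That of Irf9 was 1.09, 1.25 and 1.08 against 0.76, 0.61 and 0.21, and that of Irf7 1.80, 3.32 and 2.94 against 1.78, 1.07 and 0.16. That of Irf1 was 1.45, 1.59 and 1.84 against 2.74, 2.29 and 1.89. The values of Irf9 and, narrowly, of Irf1 and Irf7 did not overlap between the genotypes, whereas those of Irf2 did. The share of all genes without such overlap is not given here. These comparisons share the unstimulated arrays with the genotype comparisons, so they are not independent of them.

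**Figure D3:**
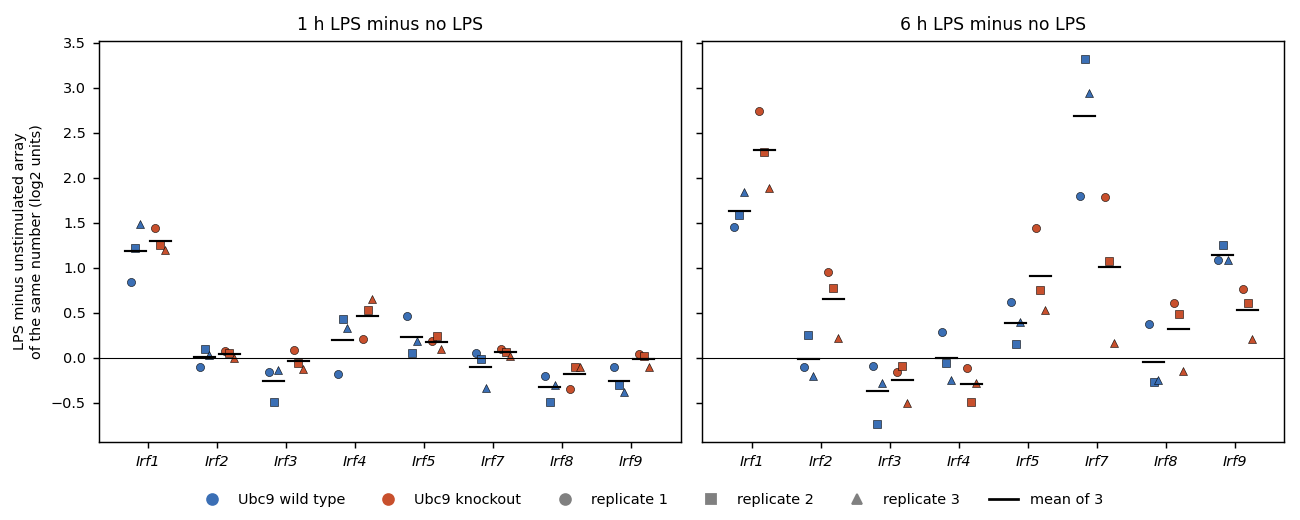
LPS minus unstimulated difference of each factor within arrays of the same genotype and number, in log2 units, after 1 h (left) and 6 h (right); horizontal lines are means of 3. At 1 h the values of Irf1 lie between 0.84 and 1.48, and at 6 h Irf9 rises by 1.08 to 1.25 in wild-type and 0.21 to 0.76 in knockout cells.

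The genes around the family were taken from lists of known roles, and each count below is to be read against the share of all genes called. Between the genotypes that share was 2.44% without LPS (1.8% higher) and 29.4% at 6 h (10.6% higher and 18.8% lower). For the 6 h LPS response it was 8.1% in wild-type (4.23% higher) and 32.2% in knockout cells (12% higher). Of 15 measured kinases and adaptors that activate IRF3, IRF5 and IRF7, 3 were called higher and none lower in unstimulated knockout cells, with a list median of 0.05. The adaptor Azi2, which holds TBK1 complexes together, was higher by 0.78 ± 0.14 (adjusted p = 0.0044). The other two were Ikbke, the inducible kinase of IRF3 and IRF7 (0.94 ± 0.21, adjusted p = 0.026), and Tlr4, the LPS receptor (0.46 ± 0.11, adjusted p = 0.035). The count fell to 1 without unstimulated knockout replicate 2 or 3 or unstimulated wild-type replicate 1 or 3. In a fit of only the compared groups it fell to 0. At 6 h 6 of 15 were higher, against 10.6% of all genes, and 3 lower, against 18.8%, with a median of 0.08. Azi2 was higher by 1.22 ± 0.14 (adjusted p = 8.4e-06) and Myd88, the adaptor upstream of IRF5, by 0.96 ± 0.13 (adjusted p = 6.3e-05). Mavs, the mitochondrial adaptor of RNA sensors, was lower (-0.91 ± 0.10, adjusted p = 4.7e-06), as was the kinase Irak1 (-0.75 ± 0.11, adjusted p = 6.4e-05).

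Of 16 measured partners and receptors, the 2 called without LPS were Stat2, the ISGF3 partner of IRF9 (1.96 ± 0.33, adjusted p = 0.003), and Irf2bp2, an IRF2 corepressor (-0.47 ± 0.10, adjusted p = 0.022). Irf2bp2 was no longer called without unstimulated knockout replicate 1, 2 or 3 or unstimulated wild-type replicate 2, which left 1. The same held in a fit of only the compared groups. At 6 h 2 of 16 were higher and 3 lower, with a median of -0.10, against 10.6% and 18.8% of all genes; the total was 8 without unstimulated wild-type replicate 2. Stat2 was higher by 2.01 ± 0.33 (adjusted p = 2.6e-04) and the receptor kinase Tyk2 by 0.70 ± 0.12 (adjusted p = 4.6e-04). Irf2bp2 was lower at -1.51 ± 0.10 (adjusted p = 8.2e-08), so Irf2 and its corepressor differed between the genotypes in opposite directions at that time.

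Genes that limit interferon regulatory factors or their signals formed another list, of which Usp18 is also counted below among the ISGF3 targets and Socs1 among the genes linked to IRF1. Of 11 measured, 4 were called higher and none lower without LPS (median 0.24), and 8 higher and 1 lower at 6 h (median 0.72). Without LPS, Usp18, which blocks the interferon receptor, was higher by 3.92 ± 0.44 (adjusted p = 7.6e-05), Trim21, a ubiquitin ligase for several of the factors, by 1.72 ± 0.25 (adjusted p = 6.7e-04) and the ligase Peli1 by 0.85 ± 0.12 (adjusted p = 4.2e-04). At 6 h Peli1 was higher by 1.95 ± 0.12 (adjusted p = 1.6e-08), the deubiquitinase Otud1 by 2.16 ± 0.18 (adjusted p = 3.7e-07), Trim21 by 2.63 ± 0.25 (adjusted p = 1.2e-06) and Socs1, an inhibitor of JAK kinases, by 2.11 ± 0.22 (adjusted p = 3.9e-06).

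Among 14 measured type I interferon genes, 1 was called without LPS and 2 at 6 h. Ifnb1, the interferon-beta gene that IRF3 and IRF7 switch on, was called at both times. Its signal in unstimulated knockout cells ranged from 4.35 to 6.56 (median 5.48), against 3.36 to 3.80 (median 3.80) in wild-type cells. The difference was 1.81 ± 0.40 (adjusted p = 0.021), and was no longer called without unstimulated knockout replicate 2 or 3 or unstimulated wild-type replicate 2 or 3. It was also not called in a fit of only the compared groups. At 6 h it was 11.48 to 12.04 in knockout and 4.26 to 4.63 in wild-type cells, a fitted difference of 7.35 ± 0.40 (adjusted p = 1.1e-08), with wild-type signals not shown to be above background. Ifnk, the keratinocyte interferon, was lower at 6 h, at -0.71 ± 0.16 (adjusted p = 0.0028). No measured interferon-alpha gene was called between the genotypes without LPS or at 6 h, and Ifna1, Ifna6 and Ifna15 were not measured. The array means of the list were 4.45 to 5.22, against a median gene mean of 5.52. With dim genes left out 5 of the 14 remained, and 0 of these were called lower at 6 h. Without detection calls, a change or its absence in such dim genes is uncertain. The median of the list was -0.04 without LPS and 0.11 at 6 h.

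Of 10 measured ISGF3 targets, the genes linked to IRF9, 9 were called higher in unstimulated knockout cells, with a median difference of 3.93 log2 units against 0.00 over all genes. Ifit3 was higher by 6.70 ± 0.43 (adjusted p = 1.5e-07), Ifit1 by 5.84 ± 0.45 (adjusted p = 1.5e-06) and Oas3, a sensor of double-stranded RNA, by 3.94 ± 0.31 (adjusted p = 2.2e-06). At 6 h all 10 measured were higher in the knockout (median 2.84), among them Oas3 by 3.61 ± 0.31 (adjusted p = 5.7e-07) and Mx2, a restriction factor of viruses, by 3.90 ± 0.54 (adjusted p = 5.6e-05). In wild-type cells 6 h of LPS raised 9 of the 10 (median 2.85), Ifit3 by 4.77 ± 0.43 (adjusted p = 3.6e-06). In knockout cells the 6 h response was called for 6 (median 1.55), and for 3 without unstimulated knockout replicate 1. The array means of this list in unstimulated knockout cells were 8.87, 9.56 and 10.63 in replicates 1, 2 and 3, of which the first lay within the wild-type means at 6 h of 7.43, 8.59 and 8.97 and the other two above them. In those arrays Irf1, Irf2, Irf3, Irf5, Irf7 and Irf9 were likewise lowest in the array numbered 1 and highest in the array numbered 3. Irf4 and Irf8 did not have that order.

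Of 12 measured genes linked to IRF1, 4 were called higher without LPS (median 0.53) and 10 higher and 1 lower at 6 h (median 1.71). The peptide transporter Tap1 was higher without LPS by 1.92 ± 0.27 (adjusted p = 5.4e-04) and the immunoproteasome subunit Psmb8 by 1.14 ± 0.18 (adjusted p = 0.0016). The count was 2 without unstimulated knockout replicate 3 or unstimulated wild-type replicate 1. It was also 2 with median-centred arrays, and 1 in a fit of only the compared groups. At 6 h Nos2, which encodes the inducible enzyme that makes nitric oxide, differed by 4.63 ± 0.26 (adjusted p = 1.3e-08), Il27 by 3.48 ± 0.25 (adjusted p = 8.3e-08) and Il15 by 2.86 ± 0.32 (adjusted p = 7.6e-06). In wild-type cells 6 h of LPS raised 4 of the 12 (median 0.63) and 9 with the replicate number as a block. Without the block the count was 0 without unstimulated or 6 h wild-type replicate 3, 1 without unstimulated wild-type replicate 1 or 2, and 2 without 6 h wild-type replicate 2. In knockout cells it was 10 of 12 (median 1.57). The array means of this list were 8.05 to 8.65 in wild-type and 10.27 to 10.35 in knockout cells at 6 h.

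For the lists tied to dendritic cell identity, the counts at 6 h stand against 29.4% of all genes called. Of 12 genes linked to IRF8, 1 was higher and 1 lower without LPS (median 0.02), and 3 were higher and 3 lower at 6 h (median 0.11). Cadm1, an adhesion molecule of cross-presenting dendritic cells, was higher without LPS by 1.27 ± 0.19 (adjusted p = 0.0011). Id2, a developmental regulator, was lower at -0.63 ± 0.13 (adjusted p = 0.017). That was lost, leaving 1 call, without unstimulated knockout replicate 1 or 2 or unstimulated wild-type replicate 1 or 3. It was also lost in a fit of only the compared groups. At 6 h Tlr3, the sensor of double-stranded RNA, was higher by 2.90 ± 0.24 (adjusted p = 3.5e-07) and Id2 was again lower, at -0.59 ± 0.13 (adjusted p = 0.0031). Of 12 genes linked to IRF4, 2 were lower without LPS (median -0.32), the chemokine gene Ccl17 at -1.14 ± 0.22 (adjusted p = 0.0078) and Klf4 at -0.65 ± 0.16 (adjusted p = 0.036). Klf4 was no longer called, leaving 1, without any of unstimulated knockout replicates 1, 2 and 3, unstimulated wild-type replicates 1 and 2 or 1 h wild-type replicate 2, and also, with another gene called in its place, without unstimulated wild-type replicate 3. In a fit of only the compared groups 1 of the 12 was called, lower. With the replicate number as a block over both genotypes 1 was higher and 4 were lower. At 6 h 2 were higher and 2 lower (median 0.05), with Klf4 then higher by 1.73 ± 0.16 (adjusted p = 9.4e-07). The total was 2 without 6 h knockout replicate 2 or 3 or 6 h wild-type replicate 1. At 6 h 1 was higher and 0 lower in a fit of only the compared groups. After quantile normalization was repeated 2 were higher and 0 lower.

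**Figure D4:**
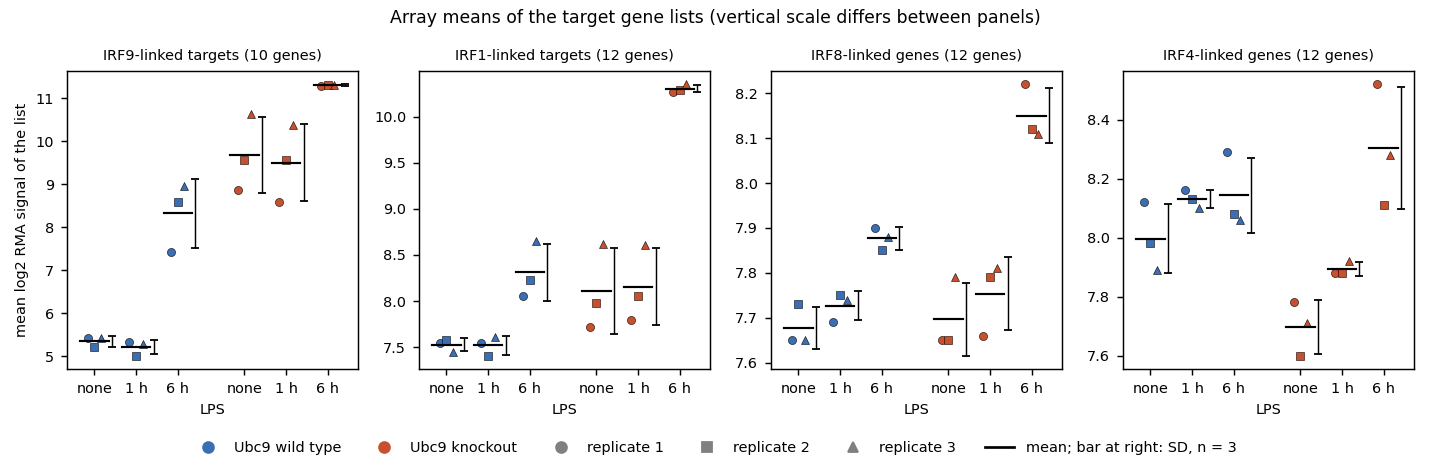
Mean log2 RMA signal of 4 target gene lists on each array, by genotype and LPS time, with group means (horizontal lines) and SD (n = 3); each panel has its own vertical scale. The IRF9-linked list (11.28 to 11.32) and the IRF1-linked list (10.27 to 10.35) each reach their highest values in knockout cells at 6 h. The IRF9-linked list is also high in unstimulated knockout cells (8.87 to 10.63).

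Markers of other cell types were measured beside these results. Of 9 macrophage markers, 3 were called higher in unstimulated knockout cells, Cd14, Fcgr1 and Adgre1, and the array means of the list were 9.13 to 10.09 against 8.80 to 9.10 in wild-type cells. That count was 1 without unstimulated knockout replicate 2 or 3, and 0 without unstimulated wild-type replicate 2. It was also 1 in a fit of only the compared groups. At 6 h 3 were higher and 2 lower, with means of 9.72 to 10.29 against 9.29 to 9.46; the total was 3 without 6 h wild-type replicate 2 or 3. Of 7 plasmacytoid dendritic cell markers, 1 was higher without LPS, Bst2, itself an interferon-induced gene (2.23 ± 0.20, adjusted p = 1.1e-05), and 3 were higher at 6 h, including Tcf4 (2.43 ± 0.17, adjusted p = 8.3e-08). The array means of that list were 6.17 to 6.50 against 5.84 to 5.91 without LPS, and 6.72 to 6.95 against 6.02 to 6.07 at 6 h. Of 8 conventional dendritic cell markers, Itgax was lower without LPS (-0.39 ± 0.08, adjusted p = 0.014), which was lost without unstimulated knockout replicate 1. The count was 2 without 1 h knockout replicate 1 or 1 h wild-type replicate 1 or 2. In a fit of only the compared groups it was 0, and with a trended robust prior or median-centred arrays it was 2. At 6 h 1 was higher and 2 lower. The array means of the list were 8.39 to 8.65 in knockout against 8.51 to 9.05 in wild-type cells without LPS, and 8.87 to 9.18 against 8.78 to 9.34 at 6 h. The array means of neutrophil markers were 5.24 to 5.57 without LPS in wild-type and 5.26 to 5.33 in knockout cells, and those of B cell, T and NK cell, mast cell and erythroid markers were between 3.80 and 4.79 in all groups. The part of cell composition in the differences of the members was not tested.

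The members were also compared by the shape of their values over the 18 arrays. The highest correlation among the 28 pairs was that of Irf7 and Irf9, with a Pearson r of 0.97, and the lowest that of Irf2 and Irf4, at -0.81. Irf3 had its highest r with Irf4, at 0.43. The search used genes spanning at least 1 log2 unit between groups, 2507 in number before predicted or unnamed genes were left out. Of the genes kept, those most like Irf7 were Ifit3b (r = 0.993), Ifitm3 (0.99) and Oasl2 (0.99). Those most like Irf9 were Ifit2 (0.992), Xaf1 (0.99) and Ifit1 (0.989). Irf1 was most like Plk2 (0.982), Ccrl2 (0.967) and Cd69 (0.964), and Irf2 most like Tpst1 (0.972), Trim14 (0.968) and Samhd1 (0.964). Irf4 was most like Nsdhl (0.908), Erg28 (0.899) and Sla (0.892), and Irf5 most like Gbgt1 (0.902), H2-M2 (0.865) and Tnip3 (0.855). For Irf8 the highest values were those of Pla1a (0.816), Cd86 (0.767) and Tlr9 (0.758), and for Irf3 those of Fn3krp (0.895), Zfp930 (0.873) and Zfp825 (0.836). These coefficients describe arrays that share genotype, LPS time and replicate number, and carry no test.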

How the data were processed

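Labelled material from 200 ng of total RNA was measured on whole-transcript Affymetrix arrays for mouse genes (Gene ST), per the labels' protocols. The authors deposited log2 signals, 1 per probe set and array, made with RMA, which subtracts background, gives all arrays the same distribution and combines the probes of a set, per the submitters' processing notes. The base of the log was read from the range of the values, 1.5 to 13.71. Of 35556 probe sets, 21789 have 1 symbol in the platform annotation, 1621 have several and 12146 are not listed there; 21698 matched a RefSeq gene by gene ID. For 999 genes with several probe sets the one with the highest mean was kept, leaving 19938 genes. Array number and probe brightness limit the precision. All 18 arrays were fitted together as 6 group means with limma 3.58.1 in R 4.3.3 (12 residual degrees of freedom), 2-sided, with p-values adjusted by Benjamini-Hochberg over all 19938 genes in each of 9 comparisons and calls at 0.05. The series text calls the 3 arrays of a group biological replicates but does not say how cultures or mice were shared, so p-values measure the spread between these arrays. Deviations from group means of arrays with the same number correlated within each genotype (18 of 18 pairs, r = 0.15 to 0.80), so the number was taken to pair arrays within a genotype and was used as a block where stated. Across genotypes r was 0.02 to 0.17. Of each pathway list, up to 4 called genes with the smallest adjusted p were eligible to be named in a comparison; for likeness, the 3 genes with the highest r were named. The members and gene lists were chosen with earlier results of these data known. Alternatives were array weights, a trended robust prior, renormalization, median centring, the mean of probe sets, dim genes left out, only the compared groups, 3 replicate blocks and each array left out. The script was tested on simulated data.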

Additional observations from a re-analysis of the deposited data

Results flagged for a closer look

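The entries here are 6 h LPS responses that differed between knockout and wild-type cells by the interaction test (limma, adjusted p under 0.05), given as the knockout response minus the wild-type response in log2 units ± SE; groups of 3 arrays are too small to screen for outlying arrays. Among the members, with the replicate number as a block, these were Irf1 (0.68 ± 0.19), Irf2 (0.67 ± 0.18), Irf7 (-1.68 ± 0.43) and Irf9 (-0.61 ± 0.15). The remaining ones come from the fit of group means without a block. Of the interferon and target genes, Ifnb1 differed by 5.54 ± 0.56, Nos2 by 4.14 ± 0.37, Il27 by 3.31 ± 0.35 and Il15 by 2.29 ± 0.46, all with the larger response in knockout cells. Of 10 measured ISGF3 targets 3 were called, all the other way, Ifit3 by -3.94 ± 0.60, Ifit1 by -3.47 ± 0.64 and Ifit2 by -2.67 ± 0.73. The other 7 were not called. Of all 19938 genes, 10.2% were called in this test, with 1432 lower. Ifit2 was no longer called with a trended robust prior or without replicate 2 or 3 of the unstimulated, or of the 6 h, knockout arrays, unstimulated wild-type replicate 1 or 2 or 6 h wild-type replicate 2 or 3 (-2.11 to -2.76, adjusted p = 0.0516 to 0.077). Of the regulators, Socs1 differed by 1.60 ± 0.31, Otud1 by 1.43 ± 0.25, Peli1 by 1.10 ± 0.16 and Foxo3 by -0.63 ± 0.13, the last not called after quantile normalization was repeated (-0.40, adjusted p = 0.095). Of the partners and receptors, Irf2bp2 differed by -1.04 ± 0.15, Tyk2 by 0.64 ± 0.18 and Ifngr2 by -0.43 ± 0.12. Both Tyk2 and Ifngr2 lost the call without unstimulated knockout replicate 1 or 2, 6 h knockout replicate 2, unstimulated wild-type replicate 2 or 6 h wild-type replicate 2. Tyk2 also lost it without 6 h knockout replicate 1 or replicate 3 of either wild-type group, unstimulated or 6 h. Ifngr2 also lost it without 6 h knockout replicate 3 or 6 h wild-type replicate 1, in a fit of only the compared groups and with median-centred arrays. Of the adaptors and kinases, Mavs differed by -0.61 ± 0.14, Irak1 by -0.55 ± 0.15 and Ikbkg by -0.55 ± 0.15. After quantile normalization was repeated none of the 3 was called (Mavs -0.42, adjusted p = 0.068; Irak1 -0.32, 0.16; Ikbkg -0.48, 0.096). Irak1 and Ikbkg also lost the call with only the compared groups, with median-centred arrays, and without unstimulated knockout replicate 2, unstimulated wild-type replicate 1 or 6 h wild-type replicate 2 or 3. Irak1 lost it further without unstimulated knockout replicate 1, 6 h knockout replicate 3 or 6 h wild-type replicate 1, and Ikbkg without unstimulated knockout replicate 3, 6 h knockout replicate 1 or unstimulated wild-type replicate 2. Of the genes linked to IRF8 and IRF4, Tlr3 differed by 2.30 ± 0.34 and Klf4 by 2.38 ± 0.22, Klf4 having fallen in wild-type (-1.55 ± 0.16) and risen in knockout cells (0.82 ± 0.16).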

How the results depend on the processing

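Of 72 member values (8 members in 9 comparisons), 16 were called, and all 16 stayed called under the 10 alternatives other than leaving out an array wherever those could be run. Leaving out each array in turn, 14 of the 16 stayed called; the exceptions, Irf5 and Irf9 in the 6 h response of knockout cells, are given above. Of the 56 not called, 13 were called under at least 1 alternative and 8 without at least 1 array. No called value changed sign, and values within 1 SE of 0 were taken to have no direction. The fit with the replicate number as a replicate block within genotype changed the count of members called from 0 to 1 at 1 h in wild-type and in knockout cells and from 0 to 4 for the 6 h interaction. A replicate block over both genotypes, whose numbers were not shown to pair, gave 5 in place of 2 for the unstimulated genotype difference, 4 in place of 2 at 1 h, 1 in place of 0 for each 1 h response and 4 in place of 0 for the 6 h interaction. Array weights gave 1 for the 1 h response of knockout cells and 3 for the 6 h interaction, and leaving out dim genes gave 2 for that interaction. Leaving out 1 array gave 0 to 1 called members for the 1 h knockout response, 2 to 5 for the 6 h knockout response and 0 to 2 for the 6 h interaction. The causes of these changes were not tested.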

Other observations

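The second probe set of Irf1, not used above, had a mean of 6.71 against 9.36 for the one reported. Its values without LPS were 5.76, 5.75 and 5.78 in wild-type and 5.69, 6.11 and 6.79 in knockout cells, so the genotypes overlapped there, whereas they were apart for the brighter probe set. At 6 h they were 6.42, 6.68 and 6.97 in wild-type and 7.99, 7.93 and 8.17 in knockout cells, apart as for the brighter one.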
